A study of Homo sapiens with 19 samples.

Results

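H3K4me3 regions that lie far from annotated promoters are described here in MOLM-13 cells, an established human acute myeloid leukaemia line. The 4 deposited H3K4me3 peak lists were merged into 12089 union regions, of which 10906 held a peak in at least 2 lists. A region was kept when its nearest edge lay more than 2500 bp from every transcription start site (TSS) of a basic protein-coding or long non-coding transcript in GENCODE release 44 on hg38. This left 630 far regions, and the other 10276 are called near regions. A further 325 far regions had a peak in exactly 1 list and were not kept. The members were thus chosen by the presence of H3K4me3 peaks and by distance, so both are described without a test, whereas H3K4me2 and H3K27ac played no part in the choice.

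The study profiled histone marks by CUT&RUN, in which an antibody directs a nuclease to release the chromatin fragments that carry a mark. Cells were given Corin or the vehicle DMSO for 24 h, with 2 libraries per mark and treatment, so that 12 libraries were analysed. The labels give 0.1 µM for the DMSO libraries as well as for Corin, and what that dose means for the vehicle is unclear. The groups share the cell line, medium and treatment time, and the labels do not say whether replicate 1 and replicate 2 came from separate cultures. Each library is a separate peak list with no read counts, so its depth is unknown beyond a labelled minimum, and a region without a peak is one in which none was called.

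H3K4me3 is deposited by SET1 and MLL methyltransferases and is best known from active promoters, many of which are CpG islands. H3K4me2 spreads further around promoters and enhancers, and H3K27ac marks promoters and enhancers in an active state. Corin was designed as a dual inhibitor of the demethylase LSD1, whose substrates are H3K4me1 and H3K4me2, and of the class I histone deacetylases that share the CoREST complex with it. H3K4me3 away from annotated starts can mark unannotated promoters, genes transcribed by RNA polymerase III such as tRNA genes, or strongly active enhancers.

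The cell identity was checked at promoters. H3K4me3 lay within 1000 bp of a TSS in all 4 libraries at 6 of 10 myeloid markers (CD33, SPI1, CEBPA, FLT3, LYZ and CSF3R), in 1 library each at CSF1R and CD14, and at MPO and ITGAM in none. It was absent in every library from all 17 markers of B, T, erythroid, hepatic, fibroblast and epithelial cells.

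The far regions ran from CpG islands to stretches without a single CpG. The following central windows of 300 bp show that range, written as the forward strand of hg38 with every CG in capitals. The first, near SMAD7 (chr18:48975828-48976127, intergenic), held 52 CG and was among those with the most. The windows in HDAC9 (chr7:18291325-18291624) and KCNN2 (chr5:114408548-114408847, intron) held 0.
SMAD7: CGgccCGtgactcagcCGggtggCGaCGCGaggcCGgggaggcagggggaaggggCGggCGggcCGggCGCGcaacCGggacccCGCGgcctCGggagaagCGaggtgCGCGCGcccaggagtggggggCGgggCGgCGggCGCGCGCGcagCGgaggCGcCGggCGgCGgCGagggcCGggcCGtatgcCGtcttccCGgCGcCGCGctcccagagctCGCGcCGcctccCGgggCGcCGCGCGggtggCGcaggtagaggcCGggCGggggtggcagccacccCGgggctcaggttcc
HDAC9: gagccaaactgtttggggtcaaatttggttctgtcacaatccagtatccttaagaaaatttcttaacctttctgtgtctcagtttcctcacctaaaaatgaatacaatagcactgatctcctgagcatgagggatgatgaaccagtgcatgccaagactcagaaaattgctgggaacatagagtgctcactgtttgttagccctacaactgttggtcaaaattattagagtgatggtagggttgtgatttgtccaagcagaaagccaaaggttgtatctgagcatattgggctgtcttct
KCNN2: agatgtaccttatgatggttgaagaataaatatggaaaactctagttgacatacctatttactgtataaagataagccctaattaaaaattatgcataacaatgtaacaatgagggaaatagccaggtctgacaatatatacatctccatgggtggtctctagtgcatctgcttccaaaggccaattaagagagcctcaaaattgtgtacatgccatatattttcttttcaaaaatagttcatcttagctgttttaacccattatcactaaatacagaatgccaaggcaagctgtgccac

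These 3 regions had H3K4me3 in all 4 libraries but differed in H3K27ac. The SMAD7 region, near the gene of an inhibitor of TGF-beta signalling, was covered by H3K4me3 over 413 and 228 bp in Corin and 332 and 756 bp in DMSO, and no library had an H3K27ac peak there. The HDAC9 region, in a class IIa deacetylase gene, carried H3K27ac over 1297 and 782 bp in Corin and 892 and 671 bp in DMSO. The KCNN2 region, in a potassium channel gene, carried H3K27ac over 862 and 658 bp in Corin and 839 and 349 bp in DMSO. Both regions with a CpG-free window thus had H3K27ac in every library.

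The next window, in an intron of GSE1 (chr16:85570161-85570460), comes from a wide region in which H3K4me3 was called in both Corin libraries and neither DMSO library. The last window, near NIPA1 (chr15:22716414-22716713, intergenic), comes from the only region with H3K4me3 in all 4 libraries and no H3K4me2 or H3K27ac in any.
GSE1: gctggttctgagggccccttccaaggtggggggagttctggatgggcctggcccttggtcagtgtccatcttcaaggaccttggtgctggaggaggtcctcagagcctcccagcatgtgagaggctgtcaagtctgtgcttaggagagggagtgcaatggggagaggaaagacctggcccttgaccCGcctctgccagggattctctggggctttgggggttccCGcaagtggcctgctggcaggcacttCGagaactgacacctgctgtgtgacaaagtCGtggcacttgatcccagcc
NIPA1: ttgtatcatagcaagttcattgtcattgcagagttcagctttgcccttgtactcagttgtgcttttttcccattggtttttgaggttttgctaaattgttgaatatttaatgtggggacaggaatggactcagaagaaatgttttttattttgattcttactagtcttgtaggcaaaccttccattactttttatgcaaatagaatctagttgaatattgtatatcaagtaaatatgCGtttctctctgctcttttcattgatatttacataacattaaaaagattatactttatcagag

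A separate set of far regions lay at tRNA genes, which RNA polymerase III transcribes from promoter elements inside the gene. The inner element called the B box, found by its consensus, is in capitals in the following genes, each printed on its own strand. TRR-CCG1-3 (chr16:3150674-3150746, plus strand) and TRR-CCT3-1 (chr16:3152900-3152972, plus strand) lie at 1 far region, TRF-GAA1-2 (chr6:28981672-28981744, minus strand) at the second and TRI-AAT8-1 (chr6:27668583-27668656, plus strand) at the third.
TRR-CCG1-3: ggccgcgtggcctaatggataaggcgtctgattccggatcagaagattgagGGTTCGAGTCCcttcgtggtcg
TRR-CCT3-1: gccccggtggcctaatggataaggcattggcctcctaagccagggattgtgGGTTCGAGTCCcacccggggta
TRF-GAA1-2: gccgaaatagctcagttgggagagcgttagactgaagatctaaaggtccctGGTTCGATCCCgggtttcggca
TRI-AAT8-1: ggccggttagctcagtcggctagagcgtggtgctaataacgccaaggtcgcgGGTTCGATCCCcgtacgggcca

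Far regions were narrower than near regions. Their median width was 799.5 bp (interquartile range 495.5 to 1227.75, largest 5877) against 1483.5 bp for near regions. Their peaks ranked low within each list by the authors' score, with medians at the 23.6 and 23.1 percentile in the Corin lists and the 23.5 and 21.6 percentile in the DMSO lists, against 55.1 to 56.3 for near regions. The median distance to a TSS was 10387 bp. By distance, 154 regions lay up to 5000 bp away, 152 up to 10000 bp, 269 up to 50000 bp and 55 beyond.

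The 3 regions just inside it lay 2501, 2507 and 2522 bp from a start (nearest to ENSG00000278041, CCDC194 and MIR1915HG), and the 3 just outside 2499, 2487 and 2466 bp (nearest to FAM32A, SLC39A4 and ID2). H3K4me3 covered 999, 821, 953 and 938 bp of the region near ENSG00000278041 in Corin 1, Corin 2, DMSO 1 and DMSO 2. In the same order it covered 1579, 1218, 1316 and 1301 bp of the region near ID2. The farthest region lay 836846 bp from a TSS in an intron of ERBB4, a receptor tyrosine kinase gene. H3K4me3 covered 1144, 1007, 404 and 786 bp of it, and H3K27ac 360, 785, 332 and 379 bp. Both marks were called there in all 4 libraries. The next farthest lay 563969 bp from a TSS, with AMY1C, an amylase gene, as the nearest protein-coding gene at 717468 bp, and 417676 bp from a TSS in an intron of NAALADL2, where a start outside the basic set lay within 1000 bp. The AMY1C region had H3K4me3 over 307 and 523 bp in Corin and 0 in DMSO, and the NAALADL2 region over 0 and 557 bp in Corin and 319 and 0 bp in DMSO. All 4 libraries had H3K4me2 at both.

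Annotation other than the basic starts accounted for part of the set. A tRNA gene of RefSeq lay within 500 bp of 82 far regions (13%), and 36 of these overlapped the gene itself. Another 181 lay within 1000 bp of a start the rule had not used, of which 131 were at starts of protein-coding transcripts outside the basic set. The remaining 367 (58.3%) had no annotated start within these distances. Of the regions named here, those at GSE1 (the exon), MOB3A, MBNL1, VMP1, FCRLB, RNF220, HDAC9, MYB, NAALADL2, IRF2BPL and TMEM235 lay at starts the rule had not used. A region between genes is named for its nearest protein-coding gene, which can be distant, as GRK3 (142938 bp), ZNF184 (128481 bp), RBX1 (69690 bp) and NIPA1 (56320 bp) were. By position, 213 regions touched an exon, 132 lay in introns and 285 between genes. Chromosomes 6 and 19 held 78 regions each, chromosome 1 held 71 and chromosome 17 held 50.

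H3K4me3 was called in 573 and 579 of the 630 far regions in the Corin libraries and in 484 and 538 in the DMSO libraries. Both Corin libraries were above both DMSO libraries, and DMSO replicate 1 was the lowest. The means were 576 ± 4.24 and 511 ± 38.2 regions (SD, n = 2 each), a log2 ratio of 0.17 (SD 0.11), given as a description because the rule used these lists. With the regions rebuilt, it was 0.085 without DMSO replicate 1, 0.094 without Corin replicate 2 and 0.10 without Corin replicate 1. The Corin lists were also longer, with 11757 and 11883 peaks against 11104 and 11343. When each list was reduced to its 11104 best-scoring peaks, the log2 ratio was 0.0044. With peaks of score 100 or more it was 0.10 (SD 0.19).

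Far regions were less often shared by all libraries than near regions, at 400 of 630 (63.5%) against 9372 of 10276 (91.2%). H3K4me3 was called in both Corin and no DMSO library at 47 far regions (7.46%), where 1.66% of all 10906 regions had that pattern, and in both DMSO and no Corin library at 6 (0.952%, against 0.321%). The other patterns were also present: 42 regions followed the replicate number, 21 were split crosswise and 62 lacked only DMSO replicate 1. Lists of matched length, merged anew, gave 571 far regions. Of these, 18 were in both Corin libraries only (3.15%, against 0.882% of all regions) and 15 in both DMSO libraries only (2.63%, against 0.957%). The excess on the Corin side was thus smaller with lists of equal length, while both patterns stayed more frequent at far regions than over all regions. With peaks of score 100 or more, the patterns were at 32 (6.27%, against 1.53%) and 10 (1.96%, against 0.533%) of 510 far regions. With all peaks, more bp lay under H3K4me3 in each Corin library than in either DMSO library at 182 far regions (28.9%, against 25.1% of all regions), and fewer at 36 (5.71%, against 9.11%).

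At the 47 regions with H3K4me3 in Corin only, H3K4me2 was nearly always present, as at far regions in general. It was called in all 4 libraries at 46 of them, where 96.5% of all far regions had it so. H3K27ac was called in all 4 libraries at 23 (48.9%), compared with 140 of the 400 far regions (35%) that had H3K4me3 in all 4 libraries. Of the 47, 38 (80.9%) were not CpG-rich, as were 47.5% of all far regions, and 38 had no annotated start within the distances above, as had 58.3% of all far regions. Their median width was 517 bp.

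Wide regions of this kind lay in introns of GSE1 and CRYBG1. At the GSE1 intron (chr16:85569690-85570931), H3K4me3 covered 900 and 1230 bp in Corin and 0 in DMSO, while H3K4me2 and H3K27ac covered all 1242 bp in all 4 libraries each. The CRYBG1 region (chr6:106521697-106522743) had 968 and 340 bp of H3K4me3 in Corin, 0 in DMSO, full H3K4me2 and only 201 bp of H3K27ac in Corin replicate 1. In both, H3K4me2 filled the region in each library, so these capped values cannot show changes beyond its edges.

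Of the 6 regions in the opposite direction, the widest lay near TRIM27 at the alanine tRNA gene TRA-TGC5-1 (chr6:28817007-28817896). H3K4me3 covered 890 and 363 bp of it in DMSO and 0 in Corin, H3K4me2 covered all 890 bp in each library, and H3K27ac was called in none. The third, near ZNF184 at the leucine tRNA gene TRL-CAA3-1 (chr6:27601599-27602188), had 590 and 392 bp in DMSO and no H3K27ac either. Between them in width lay a region near IRF2BPL (chr14:77033418-77034126) with 289 and 678 bp in DMSO. There H3K27ac covered 405 and 709 bp in Corin and 0 and 426 bp in DMSO.

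**Figure D1:**
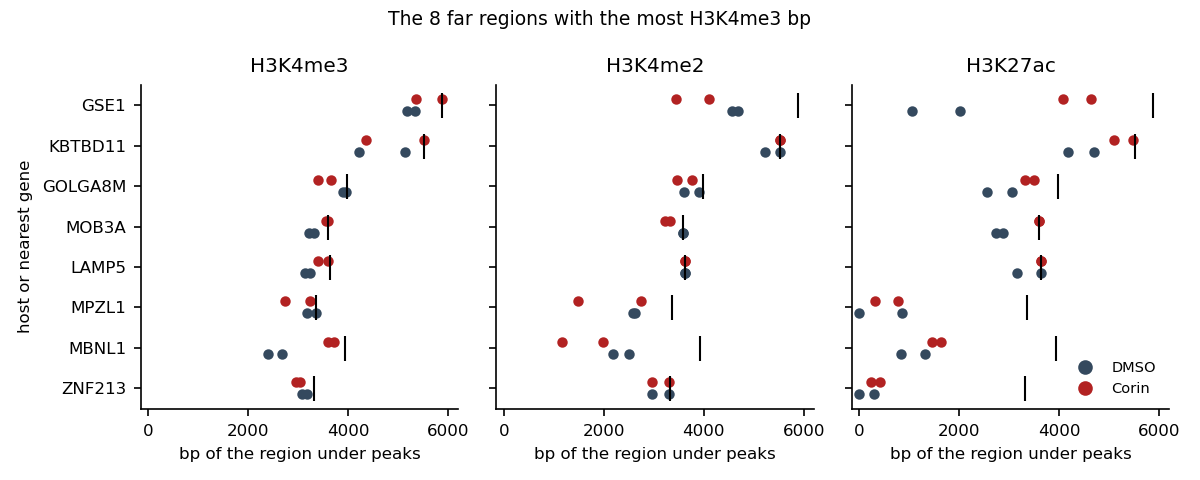
Base pairs of each of the 8 far regions with the most H3K4me3 bp on average over the 4 libraries (rows, named by host or nearest gene) that lay under H3K4me3, H3K4me2 or H3K27ac peaks in each library. Red points are the 2 Corin libraries, dark points the 2 DMSO libraries and black bars the region's width. At GSE1 H3K27ac covered 4635 and 4074 bp in Corin and 1065 and 2013 bp in DMSO, while at ZNF213 and MPZL1, both at tRNA genes, it covered at most 850 bp in any library.

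The widest far region overlapped an exon of GSE1, whose product is a coiled-coil protein found with CoREST deacetylase complexes (chr16:85553187-85559063, 24508 bp from a TSS of the basic set but within 1000 bp of a GENCODE start outside it). H3K4me3 covered 5877, 5350, 5178 and 5346 of its 5877 bp in Corin 1, Corin 2, DMSO 1 and DMSO 2. H3K27ac covered 4635 and 4074 bp in Corin and 1065 and 2013 bp in DMSO, means of 4354.5 ± 397 and 1539 ± 670 bp (SD, n = 2). H3K4me2 went the other way, over 4102 and 3448 bp in Corin and 4561 and 4692 bp in DMSO. It was the far region with both the greatest difference in H3K27ac extent, 2815.5 bp more in Corin, and the greatest fall in H3K4me2 extent, -851.5 bp. The groups did not overlap for either of these marks.

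The other wide regions held H3K4me3 over most of their length in each library. At KBTBD11, a Kelch-domain adaptor gene, H3K27ac covered 5482 and 5086 bp in Corin and 4705 and 4167 bp in DMSO. At MOB3A, of the MOB kinase activator family (chr19:2082148-2085734), it covered 3587 bp in both Corin libraries and 2739 and 2881 bp in DMSO. Again the Corin libraries were above both DMSO libraries. The GOLGA8M region (chr15:28723969-28727944, intron) had 3497 and 3319 bp of H3K27ac in Corin and 2551 and 3062 bp in DMSO. GOLGA8 genes occur in near-identical copies, so reads there may be split between copies and its values are uncertain.

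MBNL1, a splicing regulator gene, held a wide region almost free of CpG (chr3:152243692-152247626, 0.46 CpG per 100 bp). H3K4me3 covered 3718 and 3595 bp in Corin and 2675 and 2400 bp in DMSO. H3K4me2 covered 1984 and 1159 bp in Corin and 2194 and 2502 bp in DMSO. Within this region H3K4me3 thus covered more bp than H3K4me2 in 3 of the 4 libraries, all but DMSO replicate 2. The region was drawn from H3K4me3 peaks and H3K4me2 beyond its edges is not counted, so which mark was wider is not shown. The H3K4me2 groups did not overlap. A region overlapping an exon of VMP1, an autophagy gene (chr17:59837907-59840929), had 1466 and 1851 bp of H3K4me2 in Corin and 2252 and 2336 bp in DMSO, with H3K27ac between 808 and 874 bp in all 4 libraries.

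The largest rises in H3K4me2 extent without overlap of the groups were smaller. The extent is capped at the region, and H3K4me2 covered 89.8% to 94.2% of the far bp, which left less room for rises than for falls. Near ZNF778, a zinc-finger gene (chr16:89240543-89241037), H3K4me2 covered 411 and 495 bp in Corin and 306 and 0 bp in DMSO. Near TRIM27, a RING-finger ubiquitin ligase gene (chr6:28866046-28867222), it covered 1177 bp in both Corin libraries and 893 bp in both DMSO libraries. Near TMEM235, a membrane protein gene (chr17:78254138-78254584), it covered 447 bp in both Corin libraries and 0 and 445 bp in DMSO. The last rise rested on DMSO replicate 1, since DMSO replicate 2 was 2 bp below Corin.

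**Figure D2:**
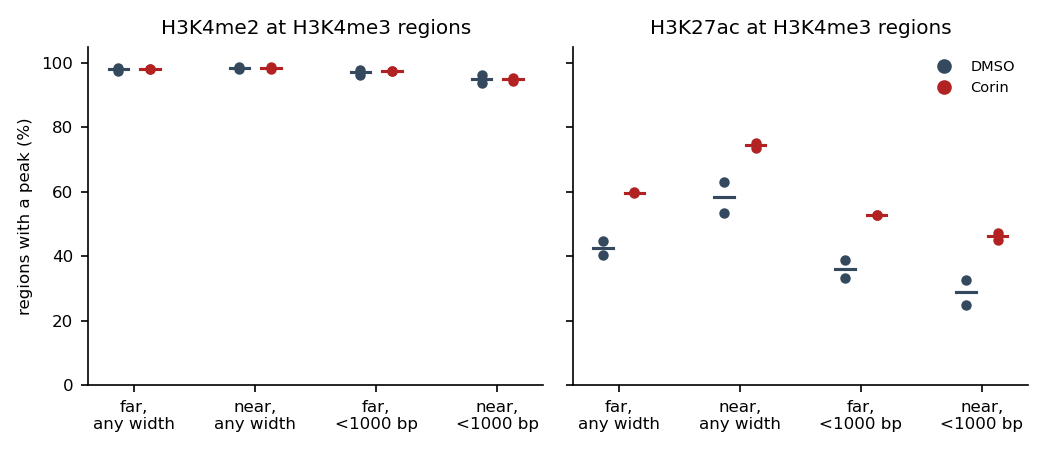
Percent of far and near H3K4me3 regions with an H3K4me2 peak (left) or an H3K27ac peak (right), for regions of any width and for those narrower than 1000 bp. Points are libraries (red Corin, dark DMSO) and short lines the means of 2. H3K4me2 shares lie above 90% throughout, whereas H3K27ac at far regions reached 59.7% and 59.8% in Corin and 40.5% and 44.8% in DMSO, below near regions of any width but above narrow near regions when narrow.

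H3K4me2 was present at nearly all far regions. It was called at 619 and 618 of them in the Corin libraries and at 615 and 620 in the DMSO libraries. The means were 98.2 ± 0.11% and 98.0 ± 0.56% (SD, n = 2), a difference of 0.159 percentage points (SD 0.57, two-sided exact permutation test over libraries, p = 1, adjusted over 7 tests 1). In 608 regions (96.5%) all 4 libraries had it. No far region had H3K4me2 in both Corin libraries only or in both DMSO libraries only, where 0.0458% and 0.0825% of all regions did. The H3K4me2 extent was higher in both Corin libraries at 19 far regions (3.02%, against 3.38% of all regions) and lower at 28 (4.44%, against 13.2%). This extent is capped at the region, and H3K4me2 covered 89.8% to 94.2% of the far bp in the 4 libraries against 73.8% to 83.5% of the near bp. The length of the whole H3K4me2 peaks, not capped, is summarised here only at regions that also had H3K4me3. That peak had to be in the library with the same treatment and number, so the subset differed by library (564, 567, 474 and 531 far regions). The median length there was 2010 and 1933 bp in Corin and 1680.5 and 1828 bp in DMSO. At near regions it was 2298, 2073, 1965 and 2097 bp in the same order.

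H3K4me2 had no peak in any library at 4 far regions. Among them, the NIPA1 region shown above (chr15:22716384-22716743), had H3K4me3 over 330 and 308 bp in Corin and 340 and 329 bp in DMSO. Elsewhere the H3K4me2 domain was usually larger than the H3K4me3 peak it held. On the same subsets, the median ratio of the H3K4me2 peak length to the H3K4me3 bp was 2.74 and 2.57 in Corin and 2.38 and 2.37 in DMSO at far regions. At near regions it was 1.66, 1.55, 1.48 and 1.58 in the same order. Far regions were narrower, and among regions under 1000 bp the ratios were 3.61, 3.51, 3.07 and 3.13 for far and 2.62, 2.47, 2.21 and 2.42 for near regions.

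H3K27ac was called at 376 and 377 far regions in the Corin libraries and at 255 and 282 in the DMSO libraries. Both Corin libraries were above both DMSO libraries, with means of 59.8 ± 0.11% and 42.6 ± 3.03% (SD, n = 2). The difference of 17.1 percentage points (SD 3.03) gave p = 0.333 in the two-sided exact permutation test (adjusted 0.467), the smallest p that 2 libraries against 2 allow. The Corin lists were much longer, with 34424 and 30029 H3K27ac peaks against 17599 and 19995. With lists of matched length the difference was 4.29 points, and with peaks of score 100 or more it was 20.8 points. The difference between far and near regions in this change was 0.887 points (SD 4.03, two-sided exact permutation p = 1), and for H3K4me2 it was 0.237 points (p = 0.333 by the same exact test).

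By region, 207 far regions (32.9%) had H3K27ac in all 4 libraries, where 5008 of all 10906 regions did, and 194 had it in none. It was in both Corin libraries only at 40 (6.35%, against 5.79% of all regions) and in both DMSO libraries only at 1 (0.159%, against 0.055%). With lists of matched length, merged anew, these patterns were at 14 (2.45%, against 1.73%) and 6 (1.05%, against 1.46%) of 571 far regions. With peaks of score 100 or more they were at 47 (9.22%, against 8.79%) and 2 (0.392%, against 0.0873%) of 510. With all peaks, the H3K27ac extent was higher in both Corin libraries at 164 far regions (26%, against 36.6% of all regions) and lower at 3 (0.476%, against 0.715%). The share with higher extent was thus below that of the whole set, but among regions under 1000 bp it was 20.8% for far and 18% for near regions. The widest with H3K27ac in Corin only lay near GRK3, a receptor kinase gene, with 967 and 466 bp in Corin. At FCRLB, an Fc receptor-like gene, the values were 1125 and 990 bp, at HIP1, an endocytic adaptor gene, 596 and 1421 bp, and at KDM2B, whose product binds unmethylated CpG DNA, 426 and 881 bp. All 4 regions were CpG-rich and had H3K4me3 in every library.

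The largest rises in H3K27ac extent after GSE1 were near BPNT2 and RBX1. Near BPNT2, a nucleotidase gene whose start lay 468682 bp away, H3K27ac covered 2661 and 2074 bp in Corin and 456 and 1310 bp in DMSO. Near RBX1, a cullin ubiquitin ligase subunit gene, it covered 1730 and 1680 bp in Corin and 0 and 805 bp in DMSO (chr22:41021068-41022802). In both regions H3K4me3 was called in all 4 libraries. The 3 regions in which both Corin libraries were below both DMSO libraries were near HMGN4 at the tRNA gene TRT-AGT2-1 (0 and 0 bp in Corin, 206 and 266 bp in DMSO), in ARHGEF10 (579 and 767 against 818 and 795 bp) and in RNF220 (1345 and 1305 against 1520 and 1356 bp).

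Set against near regions, far regions had H3K27ac less often in each of the 4 libraries. The shares at near regions were 75.3% and 73.8% in Corin and 53.4% and 63.1% in DMSO. The far minus near difference was -15.2 percentage points (SD 2.38, n = 4 libraries, two-sided exact sign-flip permutation p = 0.125, adjusted 0.292, lower in 4 of 4), and p = 0.125 is the smallest that 4 libraries allow. Without the far regions at tRNA genes it was -10.7 points. For H3K4me2 it was -0.353 points (SD 0.21, exact permutation p = 0.125, lower in 4 of 4). Over the 8 libraries together, treating the marks as independent, it was -7.79 points (SD 8.1, exact permutation p = 0.00781, the smallest possible, adjusted over 7 tests 0.0547, lower in 8 of 8), which did not pass 0.05 after adjustment.

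The direction of that comparison turned with width. Among regions narrower than 1000 bp (395 far, 2595 near), far regions had H3K27ac in 52.7% and 52.9% in Corin and 33.2% and 39.0% in DMSO, and near regions in 47.4%, 45.0%, 24.9% and 32.6%. The far minus near difference was then 6.95 points for H3K27ac (exact permutation p = 0.125), 2.25 for H3K4me2 and 4.60 over both (p = 0.00781 by the same exact test). When a peak had to cover at least 50% of a region, the difference for H3K27ac was 2.42 points.

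**Figure D3:**
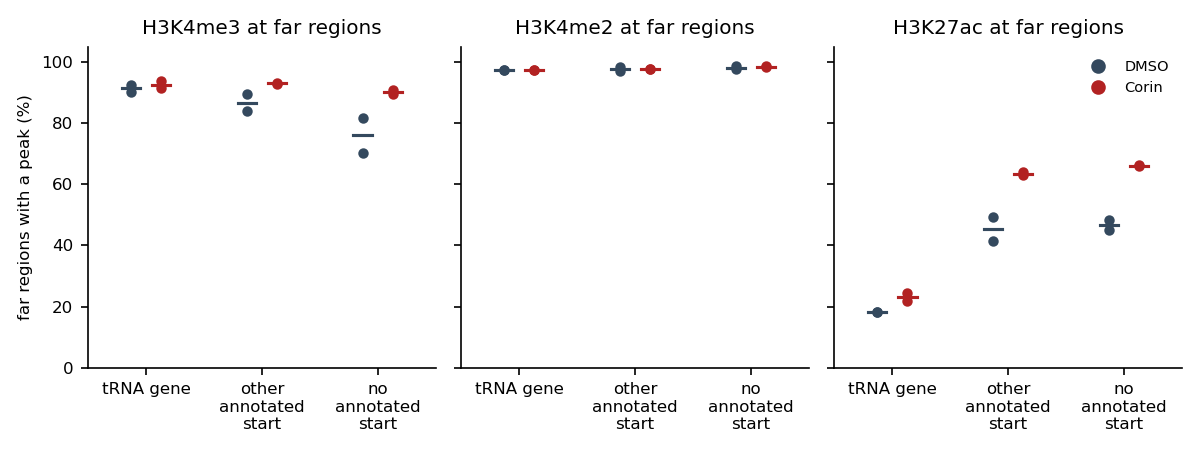
Percent of far regions with a peak of each mark, for 82 regions at tRNA genes, 181 at other annotated starts and 367 with no annotated start. Points are libraries (red Corin, dark DMSO) and short lines the means of 2. H3K27ac at tRNA regions lies between 18.3% and 24.4%, below the lowest library of the other classes at 41.4%, while H3K4me2 lies above 97% in each class.

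The far regions at tRNA genes had H3K4me3 and H3K4me2 but little H3K27ac. H3K4me3 was called at 75 and 77 of the 82 in Corin and at 74 and 76 in DMSO, and H3K4me2 at 80 in each library. H3K27ac was called at 20 and 18 in Corin and 15 and 15 in DMSO. At the far regions with no annotated start, H3K27ac was called in 65.9% and 66.2% in Corin and in 45.0% and 48.5% in DMSO. The share at tRNA regions was 35.0 percentage points below that of all other far regions on average, from -43.6 to -25.5 over the 4 libraries. This comparison was chosen after the values were seen and is given without a test. Of near regions, 82 (0.798%) had a tRNA gene within the same distance.

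The tRNA regions showed little of the treatment difference in H3K4me3. Their means were 92.7 ± 1.72% in Corin and 91.5 ± 1.72% in DMSO (SD, n = 2), whereas those of the regions with no annotated start were 90.3 ± 0.96% and 76.0 ± 8.09%. Of the 82, 2 had H3K4me3 in both Corin libraries only (2.44%, against 1.66% of all regions) and 2 in both DMSO libraries only (2.44%, against 0.321%). By score, H3K4me3 peaks at tRNA regions had medians at the 32.2, 26.7 and 27.5 percentile in Corin 1, Corin 2 and DMSO 1. At regions with no annotated start these were lower, at 19.7, 18.4 and 20.3. Whether the classes differed in the response was not tested, and they were not compared with lists of matched length.

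Together the 82 regions lay at 98 of the 443 tRNA genes with a position on the assembled chromosomes, and 308 of the 443 were themselves more than 2500 bp from a TSS. The 98 covered 19 isotypes, with serine tRNA genes the most frequent (12), then arginine (9). Chromosome 6 held 50 of them. The 98 genes were chosen for lying within 500 bp of a far region, so nearly all had an H3K4me3 peak that near. These were 93, 92, 89 and 89 genes (Corin 1, Corin 2, DMSO 1, DMSO 2). A peak touched the gene itself at only 33, 24, 30 and 23. Some of the genes have identical sequences, such as TRF-GAA1-1 and TRF-GAA1-2, so reads inside them may be split between copies. Where the peak lay beside the gene, the median gap was 94.5, 94, 91 and 79 bp. The B box consensus, searched on both strands, were present in 65 of the 98 genes (66.3%), in 97 of the 210 other tRNA genes far from a TSS (46.2%) and in 247 of all 443 (55.8%). A gene without a match says only that the consensus letters are not in it.

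Of the tRNA genes printed above, the arginine pair TRR-CCG1-3 and TRR-CCT3-1 lay at a region near ZNF213 (chr16:3149617-3152935). H3K4me3 covered 3038 and 2961 bp in Corin and 3076 and 3172 bp in DMSO, and H3K27ac 241, 419, 296 and 0 bp. TRF-GAA1-2, a phenylalanine tRNA gene, lay at chr6:28980735-28983128 with H3K4me3 over 2322, 2074, 2215 and 2088 bp and H3K27ac over 881, 958, 349 and 314 bp. TRI-AAT8-1, an isoleucine tRNA gene, lay at chr6:27667854-27670142 with H3K4me3 over 693 and 286 bp in Corin and 1834 and 1008 bp in DMSO. H3K4me2 covered all 2289 bp of that region in each library, and H3K27ac was called in none. Its H3K4me3 was narrower in both Corin libraries than in either DMSO library.

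**Figure D4:**
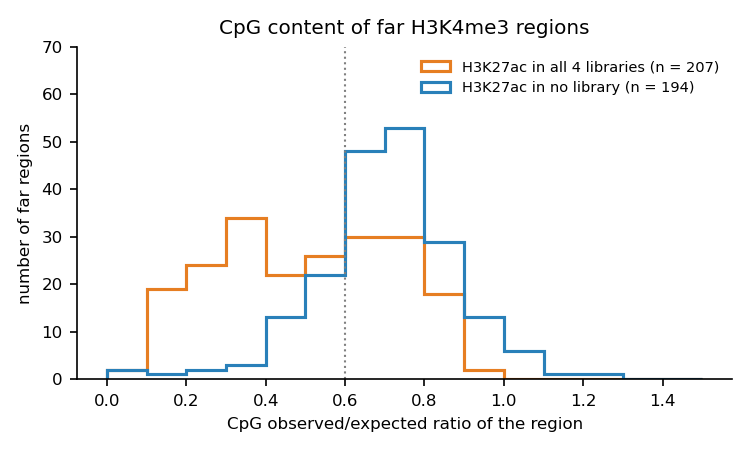
Number of far regions by the ratio of observed to expected CpG, for the 207 regions with H3K27ac in all 4 libraries (orange) and the 194 with H3K27ac in none (blue). The dotted line is the ratio of 0.6 used for CpG-rich regions. The medians are 0.509 and 0.713, and between 0.1 and 0.4 the orange line lies above the blue one.

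CpG content divided the far regions. A region was called CpG-rich when its GC content was at least 50% and its ratio of observed to expected CpG at least 0.6. Of the 630 far regions 331 (52.5%) met this, against 76.9% of near regions, and the median ratios were 0.648 and 0.725. The 47 regions with H3K4me3 in Corin only had a median ratio of 0.42, as the GSE1 window above shows by its few capitals.

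H3K27ac was more frequent at the far regions that were not CpG-rich. In the 299 of them it was called in 68.9% and 65.9% in Corin and 51.8% and 55.5% in DMSO. In the 331 CpG-rich regions it was called in 51.4% and 54.4% in Corin and 30.2% and 35.0% in DMSO. The difference was 17.8 percentage points on average, from 11.5 to 21.6 over the 4 libraries, although 58 of the 82 tRNA regions, low in H3K27ac, were among those not CpG-rich. The classes were set after values had been seen, so no test is given.

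**Figure D5:**
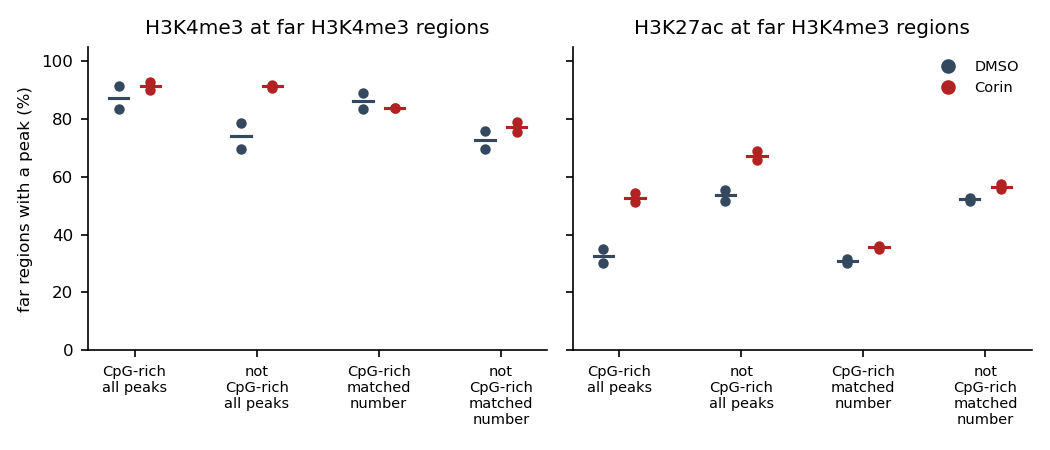
Percent of far regions with an H3K4me3 peak (left) or an H3K27ac peak (right), for CpG-rich regions and regions that are not CpG-rich, with all deposited peaks and with lists cut to a matched number of peaks. Points are libraries (red Corin, dark DMSO) and short lines the means of 2. At regions that are not CpG-rich H3K4me3 was called in 92.0% and 91.0% in Corin and 69.6% and 78.6% in DMSO with all peaks, and the separation shrinks once the lists have the same length.

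The H3K4me3 difference between treatments was larger at far regions that were not CpG-rich, a contrast that was not tested. There H3K4me3 was called in 92.0% and 91.0% in Corin and 69.6% and 78.6% in DMSO, a difference of 17.4 percentage points. At CpG-rich regions it was called in 90.0% and 92.7% in Corin and 83.4% and 91.5% in DMSO, a difference of 3.93 points, smaller than its SD of 6.08. With lists of matched length the differences were 4.52 and -2.27 points, both smaller than their SDs of 5.08 and 4.06.

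Consensus letters of known binding motifs were searched on both strands in the central 300 bp of each region, counting each motif apart. The GC box GGGCGG was in 46.7% of far and 58.7% of near regions. The RUNX letters TGTGGT were in 11.3% and 8.87%, the C/EBP letters TTGCNNAA in 9.37% and 6.7%, and the AP-1 letters TGANTCA in 5.4% and 3.26%. All of these 3 were most frequent at far regions with tRNA genes (14.6%, 20.7% and 9.76%). They were in 10.5%, 5.52% and 5.52% of far regions at other annotated starts. With no annotated start they were in 10.9%, 8.72% and 4.36%. The PU.1 letters GAGGAAGT (1.59% and 2.1%), the E-box CACGTG (5.56% and 6.45%) and the CTCF core consensus (6.03% and 5.48%) were counted in the same way. None of these differences was tested, and the shares describe letters and not binding.

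Far regions were also counted in gene lists relevant to this leukaemia. MOLM-13 carries a KMT2A fusion, which acts on genes such as the HOXA cluster and MEIS1, and of 18 such target genes 5 were host to or nearest to a far region (7 regions). Of 31 haematopoietic transcription factors 3 were, of 30 myeloid surface and effector genes 1, of 19 cytokine signalling genes 2, and of 23 genes for H3K4 writers, erasers and CoREST subunits 0. Of all 20020 protein-coding genes, 603 (3.01%) were host to or nearest to a far region. These counts are descriptions, since the lists were chosen with earlier results known.

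Among the fusion targets, SKIDA1 had 3 far regions and ZEB2 had 1. The region at chr10:21499782-21500416 near SKIDA1 had H3K4me3 over 635 and 249 bp in Corin and 0 in DMSO, and H3K27ac over 635, 567, 621 and 635 bp. It lay 17503 bp from the SKIDA1 start and is the region given above as 2522 bp from MIR1915HG. Another at chr10:21508670-21509060 had 301 and 369 bp in Corin and 0 in DMSO, and the third, chr10:21509235-21510960, had 1704, 1250, 1647 and 1155 bp. The ZEB2 region, at the gene of a zinc-finger repressor (chr2:144512576-144513441), had 797 and 513 bp of H3K4me3 in Corin and 0 in DMSO, with H3K27ac in all 4 libraries. Thus 3 of the 7 regions had H3K4me3 in Corin only, against 7.46% of all far regions, and all 7 had H3K4me2 in each library, as had 96.5% of far regions. The region in an intron of PBX3, a homeobox gene, had H3K4me3 over 229 and 0 bp in Corin and 205 and 325 bp in DMSO.

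The region 4480 bp from LAMP5, a lysosome-associated membrane protein gene (chr20:9506252-9509878), was nearly filled by all marks. H3K4me3 covered 3390, 3588, 3134 and 3239 of its 3627 bp, and H3K27ac all of it except in DMSO replicate 1 (3159 bp). Overlapping an exon of MYB, a proto-oncogenic transcription factor gene (chr6:135185037-135185906), H3K4me3 covered 745, 369, 678 and 0 bp. The region named for CEBPA (chr19:33266838-33267305) lay 35229 bp from the start of CEBPA and 18434 bp from the nearest TSS. It had H3K4me3 over 376 and 303 bp in Corin and 0 in DMSO, and H3K4me2 and H3K27ac over all 468 bp in every library. CEBPA encodes a factor of granulocyte differentiation. In an intron of RUNX1, a factor of blood cell formation (chr21:34882162-34882538), H3K4me3 covered 315, 369, 234 and 0 bp and H3K27ac 227 and 229 bp in Corin and 0 in DMSO.

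In the other lists, the region overlapping an exon of LYL1, a basic helix-loop-helix factor gene (chr19:13095478-13096765), had H3K4me3 over 346 and 1004 bp in Corin and 216 and 632 bp in DMSO. Near PRTN3, the gene of the granule protease proteinase 3 (chr19:835730-836520), H3K4me3 was called only in replicate 1 of each treatment, over 636 bp in Corin and 215 bp in DMSO. The same held near SOCS2, a feedback inhibitor of cytokine signalling (chr12:93591262-93591870), with 555 and 609 bp. Near PIM3, a serine/threonine kinase gene (chr22:49971038-49971624), H3K4me3 covered 543, 553, 270 and 527 bp. H3K27ac was called in all 4 libraries at PRTN3, SOCS2 and PIM3, but at LYL1 in Corin replicate 2 alone, over 296 bp.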

How the data were processed

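CUT&RUN was run on MOLM-13 cells, and 12 of the 19 libraries were used here. The other 7 (retinoic acid with Corin, LSD1 and IgG) were not analysed here. Per the submitters' processing notes, Trim Galore, Bowtie2, Picard and MACS2 were used, on GRCh38 (hg38); the peak calling threshold and control are not given in the sources used here. The authors deposited 1 peak list per library, with a score per peak of at least 50 whose definition is not stated. It served here to order and threshold the peaks of 1 list at a time. All 292523 peaks fell within hg38 chromosome ends.

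Lists were merged into union regions (touching peaks included), and 1 bp of overlap with a peak sufficed for a library to have the region. TSS came from GENCODE release 44, tRNA positions from RefSeq (GRCh38.p14) and sequence from hg38, counted from 1. Python 3.11.15, numpy 2.4.6, pandas 2.3.3 and pysam 0.24.0 were used, and the steps were tested on simulated data. Shares were compared by exact permutation tests over libraries, adjusted by Benjamini-Hochberg over 7 tests. Because the labels do not say what a replicate is, the p-values measure only the spread between libraries. Depth per library is unknown, so no counting interval is given. Far regions are named by rule: those with the most H3K4me3 bp, the widest with each pattern of peaks, those with the largest changes in extent, the farthest, those at the distance limit and those of 5 gene lists; the printed windows were among the widest or the extremes of CpG number. Of the regions so named, 1 is not reported here. The members and lists were chosen with earlier results of these data known.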

Additional observations from a re-analysis of the deposited data

How the results depend on the processing

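The settings listed here were fixed with the design, except the comparisons by CpG class and tRNA gene, which were added after seeing the data. The number of far regions was 324 with a distance limit of 10000 bp, 400 when all 4 lists were required and 415 when every annotated TSS was used, and 554 to 607 when leaving out 1 library. The log2 ratio of H3K4me3 regions per library was 0.0044 with a matched number of peaks and 0 by construction when all 4 lists were required, and 0.085 to 0.216 when leaving out 1 library. The H3K4me2 difference between Corin and DMSO at far regions turned negative with 3 or more lists (-0.0973 percentage points), all 4 lists (-0.375), matched number (-1.14) and a cover of at least 50% (-0.318), and was -0.577 to 0.586 when leaving out 1 library. The H3K27ac difference was 15.5 to 19.0 points when leaving out 1 library, 4.29 with matched number and 20.8 with score of at least 100. The far minus near difference for H3K4me2 turned positive with every TSS (0.132), matched number (0.0338), score of at least 100 (0.0503), merging within 1000 bp (0.212), 50% cover (9.72) and regions under 1000 bp (2.25), and was -0.428 to -0.114 when leaving out 1 library. For H3K27ac it turned positive with 50% cover (2.42) and under 1000 bp (6.95), and was -17.1 to -13.7 when leaving out 1 library. Over both marks it missed 0.05 unadjusted with every TSS (-7.98), matched number (-7.31), score of at least 100 (-6.71), merging (-7.61) and without DMSO replicate 2 (-6.90, range -8.67 to -6.90 when leaving out 1 library), and turned positive with 50% cover (6.07) and under 1000 bp (4.60). The far minus near difference in the Corin change for H3K4me2 turned negative with 3 or more lists (-0.000937), all 4 lists (-0.316) and score of at least 100 (-0.105), and was -0.000828 to 0.40 when leaving out 1 library. For H3K27ac it turned negative with a limit of 10000 bp (-0.425), every TSS (-0.0442), score of at least 100 (-2.14), 50% cover (-2.05) and under 1000 bp (-0.709), and was -2.29 to 4.07 when leaving out 1 library. The H3K4me3 difference at CpG-rich regions was -2.27 with matched number. Where a setting changed a value, the cause was not tested.

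With the replicate number as a replicate block, the H3K4me3 log2 ratio was 0.17, and the differences were 0.159 points for H3K4me2 (exact permutation p = 1) and 17.1 for H3K27ac (exact permutation p = 0.5, the smallest that 2 pairs allow). Deviations of libraries with the same number correlated over far regions at 0.331, 0.171 and 0.251 for H3K4me3, H3K4me2 and H3K27ac, but no label ties libraries of the same number to a shared culture or day, and there are only 2 pairs. None of these differences passed 0.05 with or without the block.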

Other observations

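Several far regions shared a host or nearest gene. TRIM27 and ZNF184, on chromosome 6, had 10 each, H2BC13 and NIPA1 had 6, and OR4D9 and H4C8 had 5. PRSS16, HMGN4, BCOR, the gene of a corepressor that partners BCL6, and CRYBG1 had 4 each. BCOR and CRYBG1 were chosen after their values were seen. The widest of the BCOR group (chrX:40153095-40155757, 16187 bp from a TSS) had H3K4me3 over 2599 and 2401 bp in Corin and 1962 and 2062 bp in DMSO, and H3K27ac over 1143 and 1211 bp in Corin and 0 and 233 bp in DMSO. The widest of the CRYBG1 group (chr6:106511459-106514257) had H3K4me3 over 2799 and 2753 bp in Corin and 2227 and 2194 bp in DMSO, and H3K27ac over 2265 and 1903 bp in Corin and 1223 and 667 bp in DMSO. In both regions the Corin libraries lay above both DMSO libraries for both marks.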
